A study of Mus musculus with 2 samples.

Results

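Of the 6994 boundaries on the mouse autosomes in this map, 376 (5.38%, 95% Wilson interval 4.87 to 5.93) lay at the 5′ end of a long noncoding RNA gene and at no protein-coding transcription start site (TSS). They were chosen by position alone. The boundary interval of 5 kb, widened by 10 kb on each side, had to hold the annotated 5′ end of at least 1 gene of the type lincRNA or antisense in GENCODE M21, and the 5′ end of no protein-coding gene. They are called noncoding-only boundaries here. The other autosomal boundaries were 2074 with a coding TSS in the window and 4544 with neither kind of end, and the whole list of 7367 boundaries also held those of the X chromosome.

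The map came from in situ Hi-C on 1 group of 2 biological replicates, with 170000 and 220000 cells, of mature olfactory sensory neurons sorted for expression of the odorant receptor gene Olfr1507 (MOR28) from adult MOR28-GFP mice. Per the labels the mice were of strain 129P2/OlaHsd and of mixed sex, the tissue was olfactory epithelium, and no treatment or modification is listed. The authors combined both replicates into 1 contact matrix and called boundaries from it, so there is no replicate error, and the number of read pairs behind a boundary is unknown. The list holds no expression values, so the identity of the cells could not be checked against marker genes. No test over samples was possible and no p-value is given. Intervals below are 95% intervals that cover counting error only, and neighbouring boundaries are not independent.

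A boundary is a position that few chromatin contacts cross, so that it parts neighbouring domains. Many boundaries are known to be held by CTCF, a zinc finger protein that stops cohesin as it extrudes a chromatin loop, and many lie at the promoters of active genes. A lincRNA is a long noncoding RNA from a gene between coding genes, and an antisense RNA is transcribed from the strand opposite a coding gene. Most such genes have no known function, and some act on the expression of genes beside them.

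The label of these boundaries as noncoding promoters rests on gene models and not on transcription measured in these cells. It also holds only at the level of whole genes. In 71 of the 376 windows (18.9%, 15.2 to 23.1) at least 1 transcript of a coding gene began inside the gene, at an alternative 5′ end, which the rule does not count. The share was 14.9% (678 of 4544, 13.9 to 16.0) at boundaries with neither end. By type it was 54 of 121 windows with antisense ends alone (44.6%, 36.1 to 53.5). With lincRNA ends alone it was 17 of 249 (6.83%, 4.31 to 10.7), below the share with neither end.

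The noncoding genes behind the set were 416, of which 288 were lincRNA and 128 antisense genes. In all, 249 boundaries had lincRNA ends alone, 121 antisense ends alone and 6 both. A single noncoding end lay in 341 windows, 2 ends in 30 and 3 ends in 5. The genes had a median length of 6.89 kb (5.89 to 8.47), ranging from 0.132 kb to the 415 kb of D5Ertd615e, against a median of 6.89 kb (6.64 to 7.16) for all 8122 autosomal genes of both types. Only 1 transcript is annotated for 302 of the 416 (72.6%, 68.1 to 76.7), against 6245 of 8122 (76.9%, 76.0 to 77.8). Symbols of the Gm, Rik or clone kind, given to genes without a functional name, made up 392 of the 416.

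Sequences were read at the annotated 5′ ends of these genes, whose use as promoters in these cells was not measured. The ends shown come from the 15 strongest noncoding-only boundaries, selected after their values were seen to span the number of CpG dinucleotides and to include 1 end, that of Gm10032, inside the boundary interval itself. Each runs from 100 bases before the annotated start to the 50th base of the gene, in the direction of transcription, on GRCm38, with CpG dinucleotides in capitals.
Gm32884, chr7:128795094-128795243, forward strand: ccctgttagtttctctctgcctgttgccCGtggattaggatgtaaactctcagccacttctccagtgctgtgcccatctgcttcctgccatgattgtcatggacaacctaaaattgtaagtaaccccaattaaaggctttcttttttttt
Gm36745, chr9:113642005-113642154, reverse strand: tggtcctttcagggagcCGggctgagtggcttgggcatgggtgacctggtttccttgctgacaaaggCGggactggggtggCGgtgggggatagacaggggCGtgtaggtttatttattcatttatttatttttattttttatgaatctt
CT010496.2, chr17:66532003-66532152, forward strand: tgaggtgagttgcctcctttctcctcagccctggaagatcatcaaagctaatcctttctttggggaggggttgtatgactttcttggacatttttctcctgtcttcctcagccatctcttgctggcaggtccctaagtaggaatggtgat
EU599041, chr7:43213939-43214088, forward strand: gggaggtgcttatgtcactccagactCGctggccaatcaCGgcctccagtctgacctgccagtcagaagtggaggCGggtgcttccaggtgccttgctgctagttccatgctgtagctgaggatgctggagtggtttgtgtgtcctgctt
Rab10os, chr12:3235404-3235553, forward strand: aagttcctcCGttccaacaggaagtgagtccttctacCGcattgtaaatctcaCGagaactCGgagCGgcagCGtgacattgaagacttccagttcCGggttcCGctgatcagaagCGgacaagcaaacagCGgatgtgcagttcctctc
Gm10032, chr14:66784380-66784529, forward strand: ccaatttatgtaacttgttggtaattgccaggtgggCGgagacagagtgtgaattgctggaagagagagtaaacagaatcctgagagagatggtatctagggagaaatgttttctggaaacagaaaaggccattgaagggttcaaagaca

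Across the 17 ends of these 15 boundaries the count of CpG per 150 bases ranged from 0 to 10 with a median of 1, and the highest was at Rab10os. CpG-rich sequence is typical of the promoters of widely expressed coding genes. Over the 500 bases around each start, the ratio of observed to expected CpG had a median of 0.244 (0.223 to 0.268) at the 416 noncoding ends, against 0.723 (0.710 to 0.740) at the 2744 coding TSSs of boundaries. The ratio was at least 0.6 at 29 of 416 noncoding ends (6.97%, 4.90 to 9.83), against 1726 of 2744 coding TSSs (62.9%, 61.1 to 64.7). All 8122 autosomal noncoding ends had a median of 0.257 (0.251 to 0.263), with 13.7% (13.0 to 14.5) at 0.6 or more, but they include ends beside coding TSSs, which the rule for noncoding-only boundaries leaves out. Among the 5644 autosomal noncoding ends with no coding TSS in the same 25 kb window of the genome, a comparison chosen after seeing the data, the median was 0.229 (0.223 to 0.233) and 275 (4.87%, 4.34 to 5.47) reached 0.6. The interval of the 416 ends begins just above 4.87%, and it overlaps the interval of the 5644 ends. The 29 CpG-rich ends each belonged to a different boundary, and those 29 boundaries had a median strength of 0.611 (0.430 to 1.10), against 0.543 (0.495 to 0.618) for the other 347.

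Matches to the core of the CTCF motif, 12 bases long and searched on both strands, were also read from the reference sequence. They are shown for 6 of the boundaries named below that had a match, 30 bases each with the match in capitals, written 5′ to 3′ along the strand of the match.
boundary at Gm14095, chr2:132497652-132497681, reverse strand: gtccatcttCCAGCAGATGGCatgacttca
boundary at Gm14095, chr2:132516559-132516588, forward strand: acatggtgtCCACTAGGTGGCgctcacgac
boundary at Gm28502, chr15:75088232-75088261, reverse strand: tctgcttggCCAGCAGGTGGCagattctcc
boundary at Gm10032, chr14:66785092-66785121, reverse strand: gcatcctggCCAGCAGAGGGCgctgatgcc
boundary at Bach2os, chr4:32572293-32572322, reverse strand: ttggcttggCCAGCAGATGGCaatgtaagc
boundary at Bach2os, chr4:32586783-32586812, forward strand: cgggaactaCCAGCAGAGGGCaggcatgct
boundary at Gm15543, chr6:145187246-145187275, reverse strand: agaagttggCCACTAGAGGGCtcttaatac
boundary at 4933423P22Rik, chr2:90474908-90474937, forward strand: caactgtgtCCACTAGGGGGCagtagcaaa

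At Gm14095 and at Bach2os a reverse match lay left of the boundary midpoint and a forward match right of it, so that both pairs point away from the boundary. The Gm14095 matches lay 9.83 and 9.07 kb from the midpoint, and those at Bach2os 5.19 and 9.30 kb from it. The Gm28502 and Gm10032 matches were reverse and lay right of the midpoint, at 0.746 and 2.61 kb, which is the less frequent orientation on that side. The reverse match at Gm15543 was 0.240 kb left of the midpoint of 1 of the weakest noncoding-only boundaries. A match is a likeness of letters and not a measured binding site.

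With GENCODE genes, noncoding-only boundaries were about as strong as boundaries with neither end, and their median lay below that of boundaries at a coding TSS. With RefSeq genes 64.4% (60.5 to 68.2) of the noncoding-only boundaries were strong, with a median strength of 0.668 (0.618 to 0.718). Boundaries at a RefSeq coding TSS were not summarised, so the standing of the RefSeq set against those is not known. Strength is the authors' own score for each boundary, on a scale the sources used here do not state, and boundaries of at least 0.5 have the authors' class strong. Strong boundaries numbered 207 of the 376 (55.1%, 49.999 to 60.0), against 1344 of 2074 with a coding TSS (64.8%, 62.7 to 66.8) and 2365 of 4544 with neither (52.0%, 50.6 to 53.5), and 56.0% of all autosomal boundaries. The median strength was 0.551 (0.496 to 0.618), against 0.698 (0.666 to 0.725) with a coding TSS and 0.528 (0.506 to 0.546) with neither. The quartiles of the noncoding-only set were 0.349 and 0.960, and the range was 0.2002 to 2.71. The interval of the noncoding-only set takes in the median of the boundaries with neither end and not that of the boundaries with a coding TSS. By type, the median strength was 0.609 (0.496 to 0.693) with antisense ends alone and 0.525 (0.462 to 0.618) with lincRNA ends alone, and 58.7% (49.8 to 67.1) and 52.6% (46.4 to 58.7) were strong, so the intervals overlap. Of the 100 strongest autosomal boundaries 5 were noncoding-only, which is 5.0% and close to their share of the list.

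**Figure D1:**
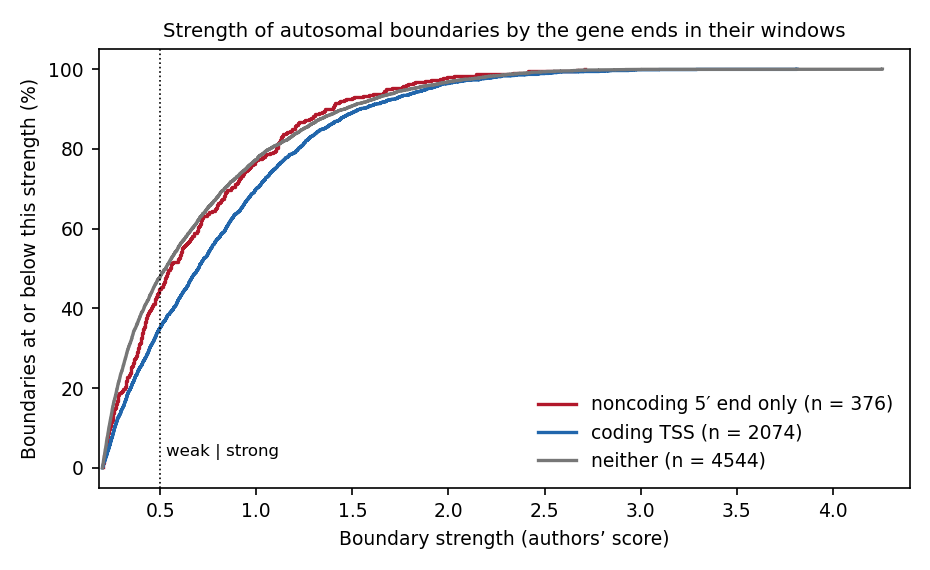
Cumulative share of autosomal boundaries (vertical axis, percent) at or below each strength (horizontal axis, authors' score) for 376 boundaries with a noncoding 5′ end only, 2074 with a coding TSS and 4544 with neither; the dotted line marks the strong class at 0.5. The noncoding-only curve runs near the curve for neither, and both lie above the coding curve, whose median is 0.698.

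Their share of all boundaries was close to their share of the genome. Among places without a coding TSS, the share was larger at boundaries, and the intervals did not overlap. Cut into windows of the same 25 kb, the autosomes gave 95843 windows with known sequence over at least 50% of their length, and 5225 of these (5.45%, 5.31 to 5.60) held a noncoding end and no coding TSS, against 5.38% of boundaries. A coding TSS lay in 17.2% of windows (17.0 to 17.5), against 29.7% of boundaries (28.6 to 30.7). Since coding TSSs take up more of the boundaries, the share was also taken among places without one. It was 376 of 4920 boundaries (7.64%, 6.93 to 8.42), against 5225 of 79348 windows (6.58%, 6.41 to 6.76). Without regard to coding genes, a noncoding end lay at 677 boundaries (9.68%, 9.01 to 10.4), against 7.83% of windows (7.66 to 7.998), and 301 of those 677 had a coding TSS too.

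Within their windows the noncoding ends were spread about evenly, while coding TSSs were concentrated at the centre. The boundary interval makes up 20% of the window by length, and it held 83 of the 416 noncoding ends (19.95%, 16.4 to 24.1), against 730 of 2744 coding TSSs (26.6%, 25.0 to 28.3). Bins of 2.5 kb across the window each held 8.89 to 11.5% of the noncoding ends. For coding TSSs the share was 13.0 and 13.6% in the pair of bins beside the midpoint and 7.51 and 7.47% in the outermost bins. The 78 boundaries with a noncoding end in the interval had a median strength of 0.656 (0.426 to 0.834), against 0.540 (0.486 to 0.609) for the 298 with ends in the flanks alone. Of the 333 ends in the flanks, 191 were transcribed away from the boundary (57.4%, 52.0 to 62.6), against 1138 of 2014 coding TSSs in flanks (56.5%, 54.3 to 58.7). The body of 102 noncoding genes reached across the boundary midpoint.

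**Figure D2:**
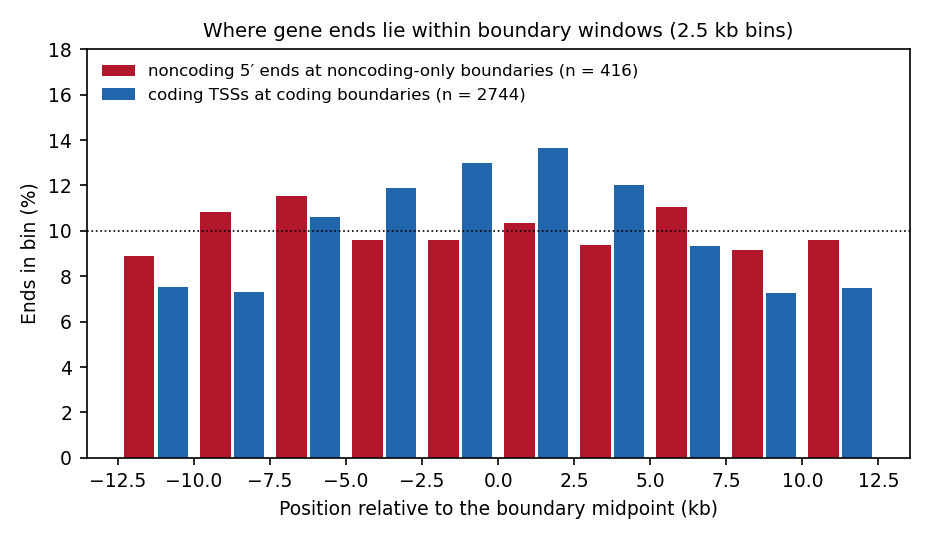
Share of gene ends (vertical axis, percent) in 2.5 kb bins of position relative to the boundary midpoint (horizontal axis, kb), for 416 noncoding 5′ ends at noncoding-only boundaries and 2744 coding TSSs at coding boundaries; the dotted line is an even spread. Noncoding bins stay between 8.89 and 11.5%, and coding bins are highest beside the midpoint at 13.0 and 13.6%.

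The 15 strongest noncoding-only boundaries had strengths of 1.79 to 2.71, and 12 of them lay outside coding genes. The strongest was at the start of the lincRNA gene Gm32884, at chromosome 7, 128790001 to 128795000, with a strength of 2.71. The gene starts 2.69 kb right of the midpoint and runs 133 kb away from it, and the nearest coding TSS is that of Sec23ip, a gene of a protein at the sites where vesicles leave the endoplasmic reticulum, 47.6 kb away. The boundary with Gm26519 and Gm32051 (2.66, chromosome 5, 105395001 to 105400000) lay 18.3 kb from the TSS of Lrrc8b, a subunit gene of volume-regulated anion channels. The Gm36745 boundary (2.41, chromosome 9, 113645001 to 113650000) was 60.8 kb from Pdcd6ip, whose protein acts with the ESCRT machinery of membrane scission. The CT010496.2 boundary (2.41, chromosome 17, 66535001 to 66540000) was 17.8 kb from Rab12, a small GTPase gene of endosomal traffic, and the lincRNA gene there runs across the midpoint.

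Among these 15 the antisense genes lay in or beside genes of several functions. Spag17os (strength 2.34, chromosome 3, 100115001 to 100120000) starts inside Spag17, a gene of the central apparatus of motile cilia, 10.6 kb from the midpoint. Bach2os (1.83, chromosome 4, 32575001 to 32580000) starts inside Bach2, a transcription factor gene of lymphocytes. The antisense gene 1700047L14Rik (1.82) lay in Rnf212, a gene of meiotic crossover, whose TSS was 17.5 kb away, and 3 transcripts of coding genes begin in the window. Rab10os (1.99, chromosome 12, 3225001 to 3230000) is at the first boundary of its chromosome, 82.5 kb from the TSS of Rab10, a GTPase gene of membrane traffic. The boundary with D5Ertd615e and the antisense gene Gm42413 (1.79) was 27.7 kb from Qdpr, whose enzyme regenerates the cofactor tetrahydrobiopterin.

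The remaining members of the 15 were lincRNA boundaries. That at EU599041 (2.14) was 93.3 kb from the zinc finger gene Zfp936, and that at Gm14095 (2.03) 80.2 kb from Gpcpd1, a gene of choline lipid breakdown. The Gm28502 boundary (1.97) was 24.5 kb from Ly6c2, a surface protein gene of monocytes, and the Gm12718 boundary (1.95) 73.7 kb from Oma1, a protease gene of the inner mitochondrial membrane. The Gm10032 boundary (1.91) was 86.2 kb from Dpysl2, a gene of axon growth, and that of Gm35667 (1.88) 86.2 kb from Fam241a. A CTCF motif match lay in the windows of 4 of the 15.

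**Figure D3:**
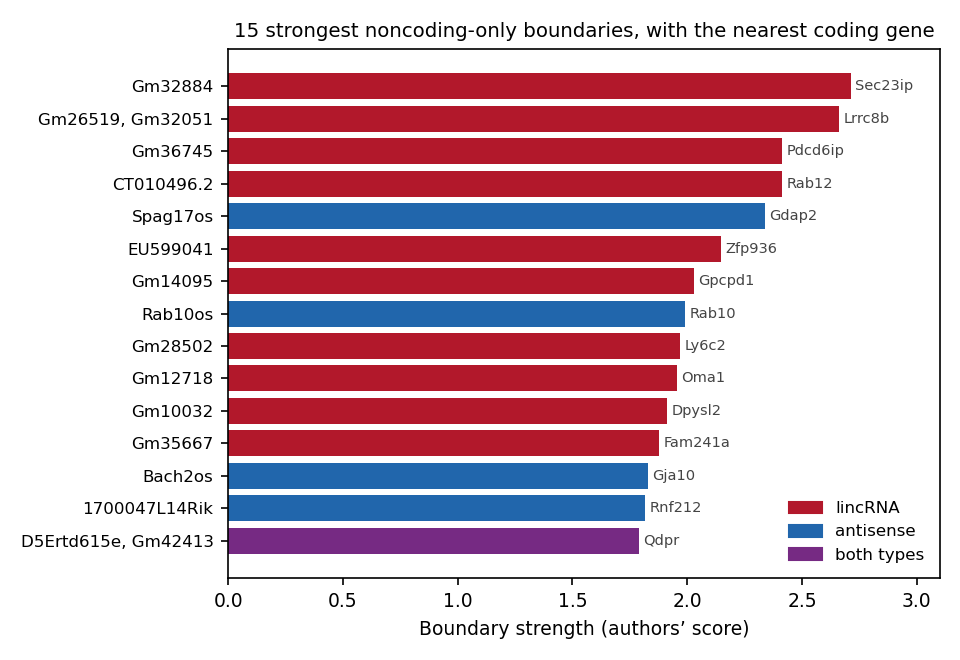
Strength (horizontal axis, authors' score) of the 15 strongest noncoding-only boundaries, 1 bar each, named by their noncoding genes and coloured by gene type, with the nearest coding gene at the end of the bar. Strength runs from 2.71 at Gm32884 to 1.79 at D5Ertd615e and Gm42413, and 10 of the 15 have lincRNA ends alone.

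The 5 weakest had strengths of 0.2002 to 0.203, at the lower limit of the list. They were at Gm17234 (0.2002), inside an intron of Spats2l, at 4930579J19Rik (0.2005), inside an intron of the growth factor gene Bmp6, at the pair 4930544I03Rik and 1700105G05Rik (0.201), at Gm49778 (0.201), and at Gm15543 (0.203), inside Casc1. The boundary right of 4930579J19Rik, 215 kb away, had a strength of 2.31, so that a weak boundary neighboured a strong one.

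Of 45 noncoding genes with an established name that were looked for, 4 lay at noncoding-only boundaries (8.89%, 3.51 to 20.7), against 416 of all 8122 autosomal lincRNA and antisense genes (5.12%, 4.66 to 5.62). Mir155hg, the primary transcript of the microRNA miR-155, which acts in immune cells, lay with 4930551I23Rik at a boundary with a strength of 1.41 (chromosome 16, 84695001 to 84700000), 38.2 kb from the nearest coding TSS, that of the mitochondrial ribosomal gene Mrpl39. Its start, 5.67 kb from the midpoint, had a CpG ratio of 1.15. Lncpint, a gene induced by p53, began 2.99 kb from the midpoint of a boundary just past the strong threshold (0.502) and runs 138 kb across it. The neighbouring boundaries were stronger, at 1.65 on the left and 1.28 on the right, 185 and 295 kb away.

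Zeb2os and Epb41l4aos were the other two. Zeb2os, antisense to the gene of the transcriptional repressor Zeb2, was at a weak boundary (0.458, chromosome 2, 45100001 to 45105000) inside Zeb2, whose TSS was 14.9 kb from the midpoint. In the window begin 25 transcripts of coding genes, whether or not the transcript itself is coding. Neighbouring boundaries were 570 and 905 kb away. Epb41l4aos began inside a boundary interval with a strength of 1.18 on chromosome 18, 214 kb from the TSS of Epb41l4a, and its start had a CpG ratio of 0.953.

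Coding genes of the olfactory and neural lists were set beside all coding genes, of which 425 of 20780 autosomal symbols (2.05%, 1.86 to 2.25) were host or nearest coding gene of a noncoding-only boundary. None of 31 genes of mature olfactory neurons and none of 19 genes of immature ones was the host or nearest coding gene of such a boundary. The intervals of these counts, up to 11.03 and 16.8%, take in the share of all coding genes. Of 46 transcription and chromatin regulators 3 were (6.52%, 2.24 to 17.5), Ebf3, Sox11 and Tshz2. Ebf3 encodes a transcription factor of a family that acts at odorant receptor enhancers. Gm45278, antisense to Ebf3, began 0.987 kb from the midpoint of a strong boundary (0.659, chromosome 7, 137195001 to 137200000) whose window also held the 3′ end of Ebf3. The TSS of Ebf3 was 117 kb away, and the next boundary to the right, 125 kb away and at a coding TSS, had a strength of 2.499. The boundaries at Gm4166 (0.525), 260 kb from the TSS of the neuronal factor gene Sox11, and at Gm26883 (0.265, weak), inside an intron of the zinc finger gene Tshz2, were weaker.

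Of 67 neurogenic and homeobox genes 5 were host or neighbour (7.46%, 3.23 to 16.3). Gm36325 lay at a strong boundary (0.591) 79.6 kb from Irx3, a patterning gene. Gm28528, antisense in Six3, a homeobox gene of eye and forebrain, lay at a weak boundary (0.406) 13.9 kb from its TSS. Zeb2 is described above, and the other genes of the list were Tbx3, near a weak boundary at Tbx3os2 (0.379), and Satb1, near a weak boundary at AC161258.2 (0.272). Of 46 axon guidance genes 1 was host or neighbour (2.17%), namely Ntrk2, the receptor gene of brain-derived neurotrophic factor, and 4930415C11Rik lay there at a weak boundary (0.259) 281 kb from the TSS.

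The share was 0.177% (0.0487 to 0.645) for 1127 odorant receptor genes and 0.915% (0.312 to 2.65) for 328 vomeronasal receptor genes, against 2.05% of all coding genes. The 2 odorant receptor genes were Olfr1357 at the Gm47459 boundary (0.798, 14.4 kb) and Olfr1274-ps at the 4933423P22Rik boundary (0.458, 73.8 kb), the second of which lay inside the phosphatase gene Ptprj. The 3 vomeronasal receptor genes were neighbours of the boundaries at Gm26547 (0.705, Vmn2r118), 4933404K08Rik (0.526, Vmn1r223) and Gm43994 (0.262, Vmn1r27). Of 26 genes of other mucosal cells 2 were host or neighbour (7.69%, 2.14 to 24.1), the endothelial receptor gene Kdr, 121 kb from the boundary at Gm28865 (0.802), and the proliferation gene Mki67, 63.9 kb from that at 5830432E09Rik (0.275) inside Ptpre. The lists are described by counts and shares, with no test. Being the nearest coding gene also depends on how closely genes are spaced. The share of each list at all autosomal boundaries was not taken. High or low list shares therefore cannot be read as enrichment or depletion at noncoding-only boundaries.

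The host and neighbour genes differed by noncoding type. A boundary midpoint lay inside a coding gene in 121 of the 376 cases (32.2%, 27.7 to 37.1), against 1094 of 2074 boundaries with a coding TSS (52.7%, 50.6 to 54.9), 1644 of 4544 with neither (36.2%, 34.8 to 37.6) and 40.9% of all autosomal boundaries. It did in 98 of 121 with antisense ends alone (81.0%, 73.1 to 87.0) and in 23 of 249 with lincRNA ends alone (9.24%, 6.23 to 13.5), which follows from how the types are defined. The host also had the nearest coding TSS in 66 of the 121 cases. The boundary interval overlapped a coding exon in 88 of the 376 cases (23.4%, 19.4 to 27.9). It overlapped an intron alone in 43 (11.4%, 8.60 to 15.1) and no coding gene in 245 (65.2%, 60.2 to 69.8). At boundaries with neither end these shares were 21.8, 16.2 and 61.99%. With a coding TSS they were 59.7, 9.11 and 31.1%. The noncoding-only intervals take in the value with neither end for exons and for no coding gene, and not for introns alone. These pooled shares mix unlike types. With antisense ends alone they were 62.8, 24.8 and 12.4%, and with lincRNA ends alone 4.82, 5.22 and 89.96%. The 3′ end of a coding gene lay in the window of 105 (27.9%, 23.6 to 32.7), against 1036 of 2074 with a coding TSS (49.95%, 47.8 to 52.1) and 812 of 4544 with neither (17.9%, 16.8 to 19.01). By type it was 60 of 121 with antisense ends alone (49.6%, 40.8 to 58.4) and 41 of 249 with lincRNA ends alone (16.5%, 12.4 to 21.6). The lincRNA interval takes in the value with neither end.

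The nearest coding TSS was a median of 52.6 kb from the midpoint (44.7 to 65.7), with quartiles of 24.8 and 113 kb, against 65.5 kb (62.4 to 68.6) at boundaries with neither end. The rule keeps coding TSSs out of the window in both sets, so neither can have a distance under 12.5 kb. It was within 50 kb for 182 and within 100 kb for 265 of the 376. The median was 38.7 kb (29.3 to 47.8) with antisense ends alone and 67.5 kb (53.3 to 81.4) with lincRNA ends alone. No noncoding end lay within 1 kb of a coding TSS, and 17 of 416 lay within 10 kb of one.

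At the near end of this range were the boundaries at Gm30008 and Gm41177, 12.6 kb from Extl3, a gene of heparan sulfate synthesis, at Gm15729, 12.7 kb from Cep19, a centrosome gene, and at Gm28086, 12.7 kb from Agxt, a liver peroxisomal enzyme gene. Their strengths were 0.786, 0.462 and 0.723. The farthest were Gm40604 and Gm47712, neighbouring boundaries 155 kb apart on chromosome 10 and 1049 and 894 kb from Gje1, with strengths of 0.441 and 0.273, and Gm45322 (0.274), 1004 kb from Tenm3. All 3 of the farthest were weak.

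Strength was lower far from coding genes in both sets of boundaries without a coding TSS. Of the noncoding-only boundaries, 58 of 96 up to 25 kb from a coding TSS were strong (60.4%, 50.4 to 69.6), 59 of 86 at 25 to 50 kb (68.6%, 58.2 to 77.4), 48 of 83 at 50 to 100 kb (57.8%, 47.1 to 67.9) and 42 of 111 over 100 kb away (37.8%, 29.4 to 47.1). Boundaries with neither end gave 69.1, 62.2, 58.3 and 33.7% in the same bins. The median strength of the noncoding-only set over 100 kb away was 0.383 (0.325 to 0.477), against 0.353 (0.340 to 0.371) with neither. Each of the 4 intervals for the strong share of the noncoding-only set held the value of the other set. Spearman's rho between strength and distance was -0.24 over the 376 boundaries, which share 1 map and its depth. GC content of the window moved with distance too, with a median of 45.9% up to 25 kb and 42.1% over 100 kb away, and its part in the result was not tested.

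**Figure D4:**
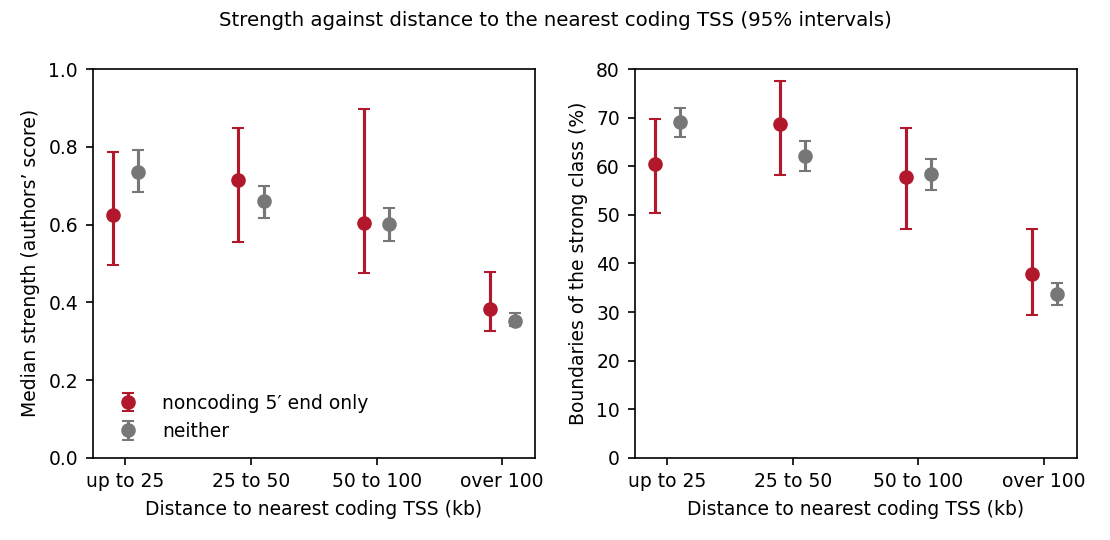
Median strength (left, authors' score) and share of the strong class (right, percent) by distance to the nearest coding TSS (horizontal axis, kb), for boundaries with a noncoding 5′ end only and with neither end; points are values and bars 95% intervals. Both sets are lowest over 100 kb away, at 37.8 and 33.7% strong, and the intervals of the noncoding-only set take in the values of the other set for the strong share in every bin.

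A coding 3′ end in the window went with a larger strong share in both sets of boundaries without a coding TSS. Of the noncoding-only boundaries with one, 70 of 105 were strong (66.7%, 57.2 to 74.95), against 137 of 271 without one (50.6%, 44.6 to 56.5). Among boundaries with neither kind of 5′ end the shares were 65.4% (62.1 to 68.6) with a coding 3′ end and 49.1% (47.5 to 50.7) without. At boundaries with a coding TSS they were 64.0% (61.0 to 66.9) and 65.6% (62.7 to 68.4). The median GC of noncoding-only windows was 46.0% with a coding 3′ end and 43.3% without, and its part was not tested. The 35 boundaries with 2 or more noncoding ends had 24 strong (68.6%, 52.0 to 81.4), against 183 of 341 with 1 end (53.7%, 48.4 to 58.9). The 3 with most ends were Gm39164, 4933430A20Rik and Gm35520 at 1 boundary (0.917), A430034D21Rik, Gm37552 and Gm26781 (0.838), and Gm34721, Gm34788 and 4930455M05Rik (0.646). The last of these was 330 kb right of the 4930415C11Rik boundary in Ntrk2.

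Matches to the CTCF motif lay in the windows of 109 of the 376 (29.0%, 24.6 to 33.8), against 570 of 2074 with a coding TSS (27.5%, 25.6 to 29.4), 1044 of 4544 with neither (23.0%, 21.8 to 24.2) and 24.6% of all autosomal boundaries. The windows cut from the whole autosomes held a match in 11.3% (11.1 to 11.5), and those with a noncoding end and no coding TSS in 14.4% (13.5 to 15.4). Boundaries with a match had a median strength of 0.695 (0.558 to 0.832), against 0.513 (0.434 to 0.591) for the 267 without. The forward strand held 32 of 80 matches to the left of the midpoint (40.0%) and 40 of 61 to the right (65.6%), against 38.1 and 63.4% at the other autosomal boundaries.

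GC content differed between the sets and moved with motif matches and with strength. The median GC of the window was 44.4% (43.7 to 44.8) at noncoding-only boundaries, 45.2% (45.0 to 45.5) with a coding TSS and 41.9% (41.8 to 42.1) with neither. The windows of all autosomal boundaries were divided into 3 GC classes of equal size. In the lowest class 9 of 72 noncoding-only windows had a match (12.5%, 6.72 to 22.1), against 10.1% with neither end. In the middle class it was 38 of 146 (26.0%, 19.6 to 33.7), against 24.5%, and in the highest class 62 of 158 (39.2%, 32.0 to 47.0), against 44.0%. Strong boundaries made up 34.7% (24.8 to 46.2), 55.5% (47.4 to 63.3) and 63.9% (56.2 to 71.0) of the noncoding-only set from the lowest to the highest class, against 36.7, 61.3 and 67.0% with neither end. Within every class the strong share was thus lower at noncoding-only boundaries, the opposite order to that over all classes (55.1 against 52.0%). Within each class both intervals of the noncoding-only set, for matches and for the strong share, held the value of the boundaries with neither end.

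The median spacing was that of all autosomal boundaries, 200 kb. Measured between midpoints, the nearest other boundary was a median of 200 kb away (185 to 210), against 180 kb (175 to 185) with a coding TSS and 210 kb (205 to 215) with neither. The interval of the noncoding-only set takes in the value with neither end. By type the median was 180 kb (165 to 190) with antisense ends alone and 210 kb (200 to 220) with lincRNA ends alone. The boundary to the left was a median of 265 kb away (245 to 290) and that to the right 273 kb (255 to 290). The most isolated was at Gm30228 (0.813), 900 and 975 kb from its neighbours, in the region of the laminin gene Lama2. The next were at Gm29328 (0.222), 705 kb from its right and 2425 kb from its left neighbour, and at Gm35998 (0.495), 685 and 2295 kb from them. The closest pairs were at Gm16599 (0.803), in an intron of Cux1, and at AC109138.4 (0.638), both 65 kb from a boundary with a coding TSS, and at Gm32184 (0.217), 80 kb from another noncoding-only boundary.

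Most noncoding-only boundaries had no other beside them in the list. Of the 376, 324 stood alone, 23 pairs were neighbours in the list, and 2 runs held 3 each. Of their 751 neighbours in the list, 54 (7.19%, 5.55 to 9.26) were noncoding-only too, 220 (29.3%) had a coding TSS and 477 (63.5%) neither. The shares of all autosomal boundaries were 5.38, 29.7 and 65.0%. Among the 54, each adjoining pair is counted from both sides. The interval is therefore too narrow and cannot decide whether 7.19% differs from 5.38%. The next noncoding-only boundary was a median of 1940 kb away. By chromosome they numbered 11 on chromosomes 4 and 16 to 32 on chromosome 2. Their share of a chromosome's boundaries ran from 2.45% on chromosome 4 to 7.61% on chromosome 10, and chromosome 4 also had the lowest density of lincRNA and antisense genes, 2.45 per Mb. Chromosome 6 had 8 strong ones of 25, and chromosome 11 had 12 of 17.

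**Figure D5:**
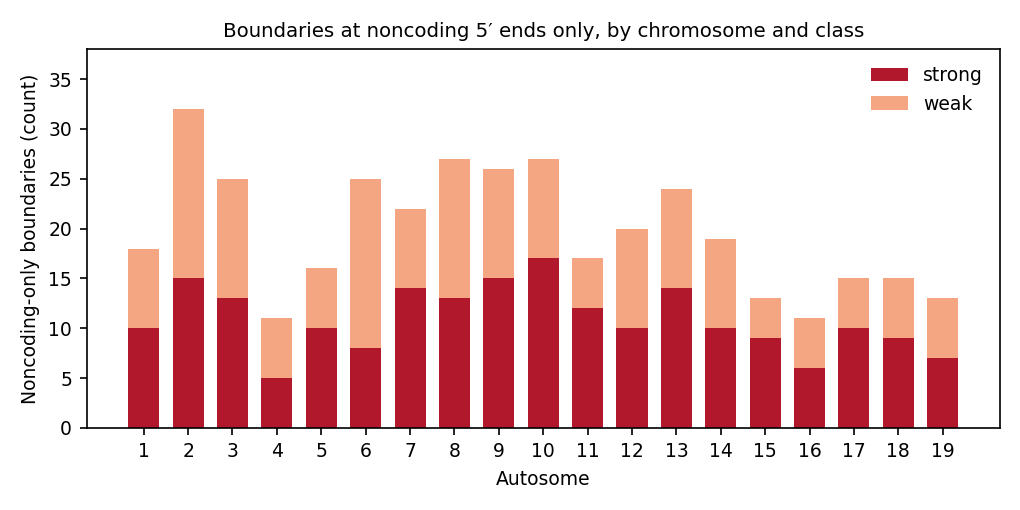
Number of noncoding-only boundaries (vertical axis, count) on each autosome (horizontal axis), divided into strong and weak. Chromosome 2 has most, with 32, and chromosomes 4 and 16 have fewest, with 11 each.

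These are the boundaries nearest to the limit of 10 kb. Just inside it for the noncoding end were the boundaries at Gm16599, 9996 bases from the interval (0.803), and at 1700096K18Rik, 9988 bases (0.306). Just outside were those at 4930518J21Rik, 10033 bases (2.21), and at Gm15655, 10078 bases (0.381). For the coding TSS, the boundaries at Extl3, 10146 bases away (0.786), and Cep19, 10201 bases (0.462), were just far enough to stay in the set, and those at Bckdhb, 9856 bases (0.936), and Oser1, 9697 bases (0.272), were left out.

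The choice of gene annotation changed which boundaries made up the set and how strong the set was. With RefSeq genes of the same build, in which long noncoding RNAs form a single class, 599 boundaries were noncoding-only, and 202 boundaries were in both sets, which is 53.7% of the GENCODE set and 33.7% of the RefSeq set. Strong boundaries made up 386 of the 599. The GENCODE classes had 64.8% with a coding TSS and 52.0% with neither end. This sets a RefSeq set beside GENCODE ones, since boundaries at a RefSeq coding TSS were not summarised. They were 122 of the 202 in both sets (60.4%, 53.5 to 66.9), 85 of 174 in the GENCODE set alone (48.9%, 41.5 to 56.2) and 264 of 397 in the RefSeq set alone (66.5%, 61.7 to 71.0), against 2069 of the 4087 with neither end in both annotations (50.6%, 49.1 to 52.2). A motif match lay at 214 of the 599 (35.7%, 32.0 to 39.6). Among boundaries without a coding TSS 12.2% (11.3 to 13.1) held a RefSeq noncoding end, against 9.97% (9.76 to 10.2) of windows without one, and 149 of 677 such ends (22.0%, 19.1 to 25.3) lay in the boundary interval. The split by both annotations was chosen after seeing the data, and the median distance to a coding TSS was 46.98 kb in both sets, 66.5 kb in the GENCODE set alone and 40.1 kb in the RefSeq set alone.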

How the data were processed

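The boundary list holds 1 score per boundary, the authors' deposited strength, beside an interval of 5 kb and a class, and per the series design text it was called on GRCm38 from the combined contacts of both replicates. For caller, aligner, filters and depth: not given in the sources used here. In the list, strengths start just above 0.2 and the class changes at 0.5. The score was used within the list only.

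Gene ends were 5′ ends of GENCODE M21 gene models on GRCm38, and distances ran from boundary midpoints. Sequences came from the GRCm38.p6 reference of another strain than the mice. CpG ratios used 250 bases on each side of a start. Shares have Wilson intervals and medians order-statistic intervals from the binomial distribution, computed in Python 3.11.15 with scipy 1.17.1, and classification was tested on simulated data. Members and gene lists were chosen with earlier results of these data known. Named boundaries were the 15 strongest and 5 weakest, those with listed genes, and those extreme in spacing, distance or number of ends. The alternatives were other windows, thresholds, gene types and annotations.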

Additional observations from a re-analysis of the deposited data

How the results depend on the processing

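Over 7 results and 12 alternatives, 48 of 82 values stayed within the interval of the reported value or, for the number of boundaries, within 1.5 times of it. With the 5 kb interval alone there were 110 boundaries, 61.8% strong, with a median strength of 0.663, 28.2 kb to a coding TSS and 10.0% with a motif match, a smaller window by construction. With 5 kb added the median strength was 0.628, the distance 41.6 kb and the motif share 21.1%, and with 20 kb added the distance was 71.7 kb, 27.2% lay in a coding gene and 40.9% had a match. Leaving out windows with the 5′ end of any transcript of a coding gene gave 305 boundaries. They lay 43.7 kb from the nearest such end, and 20% were in a coding gene. With lincRNA alone the distance to a coding TSS was 65.9 kb, and 9.02% lay in a coding gene. With antisense alone there were 127 boundaries, at 37.9 kb, 77.2% in a coding gene and 180 kb from the nearest boundary. The strong class alone gave 207 boundaries with a median strength of 0.917, 42.6 kb to a coding TSS and a 34.3% motif share. The strongest 25% gave 87, with a median strength of 1.31 and 24.1% in a coding gene. Spacing was then 285 kb to the nearest other strong boundary and 575 kb to the nearest other of the strongest 25%. These spacings leave out all weaker boundaries, so they are larger by construction. With RefSeq there were 599, 64.4% strong, with a median strength of 0.668, 42.5 kb, 27.4% in a coding gene and a 35.7% motif share. The cause of the RefSeq difference was not tested. No paired analysis was possible because the replicates were combined before boundaries were called, and no replicate could be left out. Map depth limits which boundaries can be seen, and it is unknown here.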
